A study of Mus musculus with 8 samples.

Results

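The subunits of the transcription factor NF-kB and the inhibitors that its own activity induces were followed as 10 genes: Nfkb1, Nfkb2, Rel, Rela, Relb, Nfkbia, Nfkbie, Nfkbiz, Tnfaip3 and Bcl3. Members were the non-control probes whose RefSeq transcript carries one of these symbols. A probe was found for 9 of the 10 genes and none was matched to Nfkb1. Of these 9, 8 were among the 15203 genes that could be tested, and Rel was left out because its probe was well above background on 1 array only.

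The cells were RAW 264.7, a macrophage-like line derived from BALB/c mice, cultured for 6 hours with 1 of 3 bacteria used as probiotics at a multiplicity of infection of 1: *Bacillus clausii* (3 arrays), *Bifidobacterium bifidum* (3 arrays) or *Lactobacillus acidophilus* (2 arrays). Each array paired Cy5-labelled RNA of treated cells with Cy3-labelled RNA of untreated cells of the same time, which gave 1 ratio of treated over untreated per array. The submitters' design names 3 biological replicates in each condition. Dyes were never swapped, and since no label ties an array to a culture of its own, the spread behind the p-values may be technical.

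In resting macrophages, dimers of the NF-kB subunits are held in the cytoplasm by IkB proteins. Bacterial products sensed by Toll-like receptors activate the IkB kinase, IkB is degraded, and the freed dimers enter the nucleus and switch on cytokine genes together with their own inhibitors. That feedback renews IkB-alpha and raises A20, the product of Tnfaip3, which edits ubiquitin chains upstream of the kinase.

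The arrays lay on 2 slides. Both *L. acidophilus* arrays shared slide 1 with replicate 3 of the other strains, whose replicates 1 and 2 made up slide 2. An extended scan range was used for slide 1, where no probe was saturated, while 75 to 106 probes per array were saturated on slide 2, no member among them. *B. clausii* replicate 3 stood apart with 12543 probes well above background, against 21508 to 26473 on the other arrays. Of 11 macrophage markers with a probe, 9 were well above background in untreated cells on all 8 arrays, among them Csf1r, Adgre1 and Spi1, while Mrc1 was on none. Of the markers of other cell types, only the neutrophil gene S100a8 was above background on all 8. The *B. clausii* calls over all arrays are given with and without replicate 3, which was its only array on slide 1.

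The promoters of the members were searched for the kappaB consensus, the DNA site of NF-kB, written as 3 G, a purine, 2 bases of any kind, 2 pyrimidines and 2 C. The window was the 250 bases before the most upstream annotated start in RefSeq (GRCm38.p6), on both strands, and overlapping matches were counted as 1 stretch. RefSeq entries were at hand for 7 members. Of these, 5 held a match, which were Nfkb2, Rel, Nfkbia, Nfkbie and Tnfaip3, and Rela and Bcl3 held none. Over all 27025 genes of the table, 7.03% held a match in a window of this length. A match is a description of the letters and not of binding. The sequences of the 4 measured members with a match are shown so that the matched letters can be read in place, 5′ to 3′ on the strand of the gene, with every matching stretch in capitals.
Nfkbia: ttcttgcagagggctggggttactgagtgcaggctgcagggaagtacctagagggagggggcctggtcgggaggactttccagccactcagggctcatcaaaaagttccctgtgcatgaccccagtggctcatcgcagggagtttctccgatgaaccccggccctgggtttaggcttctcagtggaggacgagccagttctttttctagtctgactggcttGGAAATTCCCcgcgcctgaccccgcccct
Tnfaip3: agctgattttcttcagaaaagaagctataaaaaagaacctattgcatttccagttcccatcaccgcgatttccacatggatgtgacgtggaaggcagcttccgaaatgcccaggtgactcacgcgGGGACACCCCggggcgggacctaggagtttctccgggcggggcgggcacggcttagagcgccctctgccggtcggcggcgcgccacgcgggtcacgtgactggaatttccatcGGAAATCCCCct
Nfkb2: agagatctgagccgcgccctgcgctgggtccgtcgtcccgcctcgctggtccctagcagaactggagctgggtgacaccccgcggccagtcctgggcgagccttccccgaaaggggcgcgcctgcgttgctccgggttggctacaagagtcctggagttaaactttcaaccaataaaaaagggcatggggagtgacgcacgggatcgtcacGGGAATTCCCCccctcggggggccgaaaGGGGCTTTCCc
Nfkbie: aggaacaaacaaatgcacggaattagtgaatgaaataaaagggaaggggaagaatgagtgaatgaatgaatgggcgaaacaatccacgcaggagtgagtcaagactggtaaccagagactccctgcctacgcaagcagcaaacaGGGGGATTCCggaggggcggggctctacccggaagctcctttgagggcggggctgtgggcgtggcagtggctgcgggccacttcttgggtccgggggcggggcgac
The Nfkbia window was chr12:55492648-55492897 on the minus strand, and its match began 29 bases before the start. In Tnfaip3 (chr10:19015411-19015660, minus strand) 1 stretch began 125 bases and another 12 bases before the start. The Nfkb2 window (chr19:46304487-46304736, plus strand) also held 2 stretches, which began 39 and 11 bases before the start. In Nfkbie (chr17:45555450-45555699, plus strand) the match began 106 bases before the start.

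**Figure D1:**
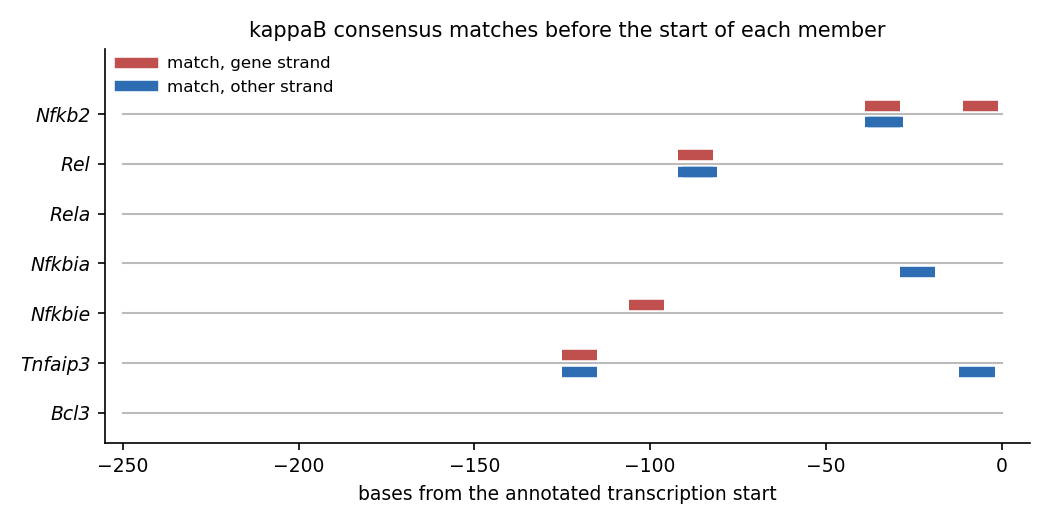
Position of each match to the kappaB consensus, in bases from the annotated start, in the 7 members with a RefSeq promoter; red bars are matches on the strand of the gene and blue bars on the other strand. Tnfaip3 and Nfkb2 have 2 separate stretches each, Rel, Nfkbia and Nfkbie have 1 each, and Rela and Bcl3 have none.

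The members did not respond as a block. On slide 2, Tnfaip3 and Nfkb2 were at their highest ratios with *B. clausii*, Nfkbie and Bcl3 were low with both *B. clausii* and *B. bifidum*, and Rela was high with *B. bifidum*. On slide 1 no tested member's ratio was larger than 0.42 in size on any array. Values below are log2 ratios of treated over untreated cells per array after background correction and loess, so that 0 means equal signal and 1 a doubling. Arrays that lay apart by slide or strain are described below, and how many of all genes lay apart likewise was not counted. In the limma fits below, 38.6% of all genes differed between the slides with *B. clausii* and 29.7% with *B. bifidum*. Between these strains on slide 2, 29.6% differed.

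Among the subunits, Nfkb2 encodes p100, the precursor that is cut to p52 in the non-canonical pathway. Its log2 ratios were 0.60 and 0.47 on the *B. clausii* arrays of slide 2, 0.10 and 0.04 on the *B. bifidum* arrays of slide 2, −0.33 and −0.12 on the slide 1 arrays of these strains, and −0.15 and −0.18 with *L. acidophilus*. Both *B. clausii* arrays of slide 2 were thus above every other array, and all 4 arrays of slide 1 were below 0.

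Rela encodes p65, the subunit that carries the transactivation domain of the canonical dimer. Its log2 ratios were 0.39 and 0.30 with *B. bifidum* on slide 2 and −0.24 on slide 1, against −0.06 and 0.00 with *B. clausii* on slide 2 and −0.28 on slide 1, and −0.24 and −0.23 with *L. acidophilus*. The *B. bifidum* arrays of slide 2 did not overlap with the rest. A second, dimmer probe of Rela with 10 spots gave 0.30 and 0.21 on the same arrays and −0.12 and −0.14 for *B. clausii* on slide 2, but on slide 1 the probes differed on all 4 arrays. There the dimmer probe gave −0.03 and 0.04 with *L. acidophilus*, 0.01 with *B. clausii* and 0.09 with *B. bifidum*, so that the negative ratios of Rela on slide 1 rest on 1 probe.

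Relb partners p52 in the non-canonical dimer. With *B. clausii* its log2 ratios were −0.50 and −0.49 on slide 2 and −0.34 on slide 1, lower than on any array of another strain. The *L. acidophilus* arrays gave −0.19 and −0.17, and *B. bifidum* gave 0.02 and 0.06 on slide 2 and −0.25 on slide 1. This separation was not seen with the scanner software's own log ratio. There *B. clausii* gave −0.26 and −0.02 on slide 2 and −0.36 on slide 1, and *L. acidophilus* −0.23 and −0.18. The Rel probe, for the c-Rel subunit, was above background only in the untreated channel of *L. acidophilus* replicate 2, where its log2 ratio was −1.56. On the other arrays it gave no measured level, and its ratios there lay between −0.15 and 0.16.

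Among the inhibitors, Nfkbia encodes IkB-alpha, the inhibitor that is degraded and then made anew within a response. Its log2 ratios were 0.16 and 0.15 with *L. acidophilus*, 0.27 and 0.19 with *B. clausii* on slide 2 and −0.05 on slide 1, and −0.11 and 0.09 with *B. bifidum* on slide 2 and 0.42 on slide 1. The strains overlapped, and the 1 array above 0.3 was the *B. bifidum* array of slide 1.

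Nfkbie encodes IkB-epsilon, a slower inhibitor of the same family. On slide 2 its log2 ratios were −0.67 and −0.71 with *B. clausii* and −0.83 and −0.70 with *B. bifidum*. On slide 1 they were 0.03 and 0.18 for the same strains and 0.09 and 0.05 with *L. acidophilus*. All 4 arrays of slide 2 were low, all 4 of slide 1 lay just above 0, and the slides did not overlap. Many other genes also differed between the slides, as given above.

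Bcl3 and Nfkbiz encode nuclear IkB proteins, which bind p50 or p52 dimers on DNA and can activate as well as repress. The log2 ratio of Bcl3 was below 0 on all 8 arrays, at −0.24 and −0.40 with *L. acidophilus*, −0.66 and −0.73 with *B. clausii* on slide 2, −0.69 and −0.54 with *B. bifidum* on slide 2, and −0.26 and −0.14 for these strains on slide 1. Slide 2 was again the lower, without overlap. Nfkbiz had 0.48 and 0.33 with *B. clausii* on slide 2, while the remaining arrays where its probe was above background lay between −0.15 and −0.02. On *B. clausii* replicate 3 the probe was not well above background, and its ratio there was −0.14.

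Tnfaip3 had the largest ratio of any member. Its log2 ratios were 0.95 and 0.90 with *B. clausii* on slide 2, 0.19 and −0.04 with *B. bifidum* on slide 2, −0.20 and −0.20 for *B. clausii* and *B. bifidum* on slide 1, and −0.08 and −0.21 with *L. acidophilus*. Both *B. clausii* arrays of slide 2 lay far above the other 6, which did not separate by strain. Across the 8 arrays, which share slides, the ratios of Tnfaip3 ran with those of Nfkb2 (Pearson r = 0.97) and Nfkbiz (r = 0.94), and those of Nfkbie with Bcl3 (r = 0.94). These were the highest of all pairs of tested members, and the most negative were Rela with Nfkbie (r = −0.86) and Nfkb2 with Bcl3 (r = −0.81). Genes outside the members reached higher values with Tnfaip3, such as Emp1 (r = 1.00) and Pdss1 (r = 0.99).

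**Figure D2:**
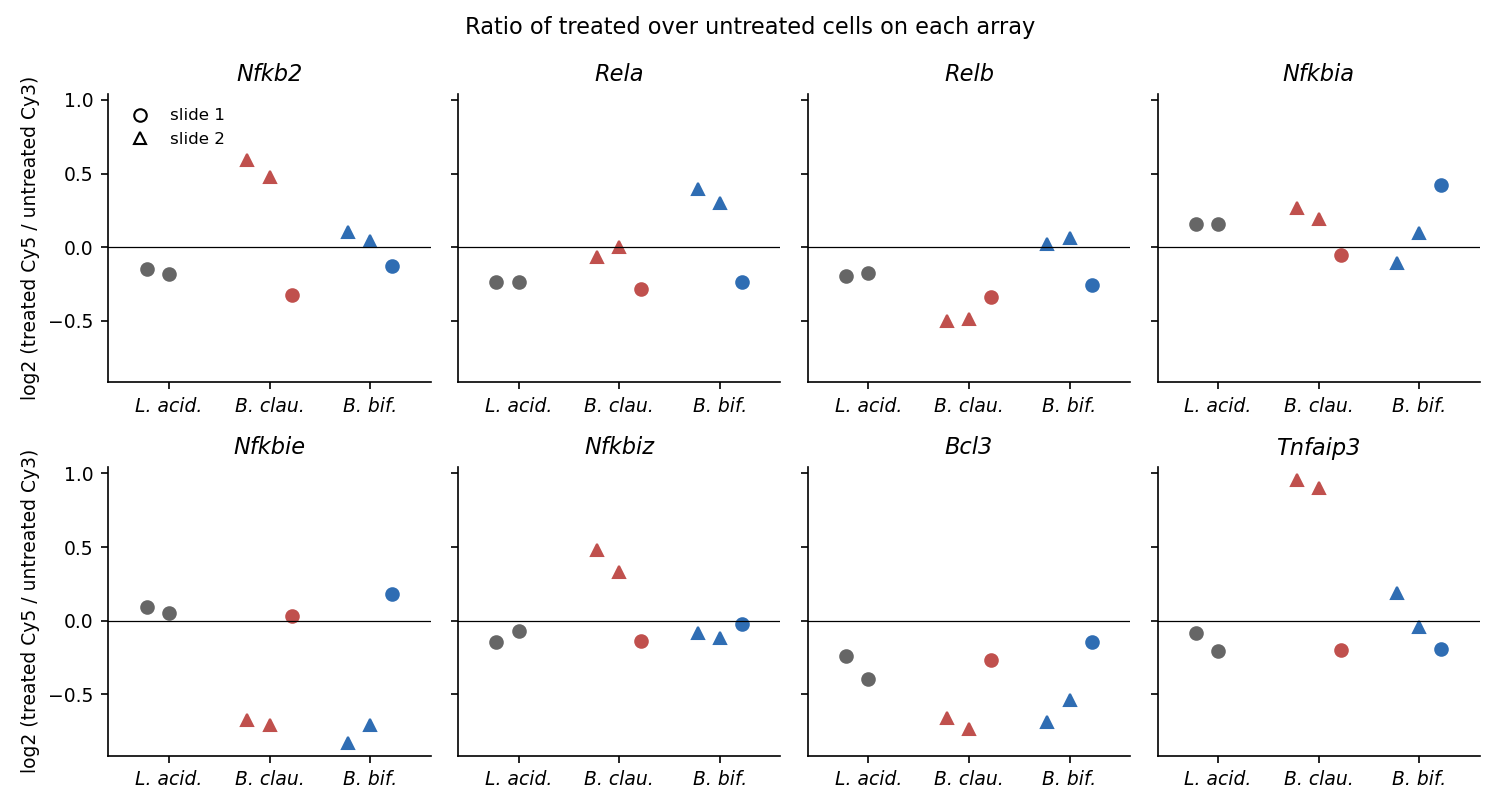
Log2 ratio of treated (Cy5) over untreated (Cy3) cells on each array for the 8 tested members; the horizontal axis is the strain, each point is 1 array, circles are slide 1 and triangles slide 2. Tnfaip3, Nfkb2 and Nfkbiz are highest on the B. clausii arrays of slide 2, Nfkbie and Bcl3 are lowest on slide 2 with both strains, and the circles of slide 1 lie between −0.40 and 0.42.

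Whether each strain differed from untreated cells was tested over all 8 arrays with limma and Benjamini-Hochberg adjustment at 0.05. With *B. clausii*, 2 of the 8 members fell, Relb by 0.44 on the log2 scale (SE 0.08, adjusted p = 0.0372, 1.36-fold lower, on 3 of 3 arrays) and Bcl3 by 0.55 (SE 0.12, adjusted p = 0.0454, 1.47-fold lower, on 3 of 3 arrays). Of all genes tested, 4.77% were called for *B. clausii*, and 2.6% were called lower. Tnfaip3, at 0.55 ± 0.20 (SE, adjusted p = 0.106), and Nfkbie, at −0.45 ± 0.20 (SE, adjusted p = 0.166), did not pass. With *B. bifidum* no member passed among 1.72% of genes called, and 1 member, Bcl3 at −0.46 ± 0.12 (SE, adjusted p = 0.0917), had an unadjusted p under 0.05. With *L. acidophilus* no gene at all passed (0%), though 1103 genes had an unadjusted p under 0.05, none of them a member. Its members lay between −0.32 for Bcl3 and 0.16 for Nfkbia.

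The calls of Relb and Bcl3 with *B. clausii* depended on which arrays set the spread. Both were lost when either *L. acidophilus* array, replicate 1 or 2 of *B. clausii* or replicate 1 or 2 of *B. bifidum* was left out, and no more than 7 genes of the whole table were called in those fits. Without *B. clausii* replicate 3, 6 members were called, against 36% of all genes. Their directions held throughout, with Relb between −0.49 and −0.41 and Bcl3 between −0.70 and −0.46. With the scanner software's own log ratio no member passed, Relb at −0.21 (adjusted p = 0.306) and Bcl3 at −0.62 (adjusted p = 0.0963), against 0.467% of all genes called. With each array centred on its median in place of loess, no member and no gene at all (0%) passed.

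With the slide as a block, 4 members were called for *B. clausii* against 25.2% of all genes. Bcl3 fell by 0.48 (adjusted p = 0.00237), Relb by 0.45 (adjusted p = 0.00562) and Nfkbie by 0.31 (adjusted p = 0.00875), and Tnfaip3 rose by 0.44 (adjusted p = 0.0354). For *B. bifidum*, Bcl3 fell by 0.38 (adjusted p = 0.0064) and Nfkbie by 0.31 (adjusted p = 0.0128), against 14% of all genes. For *L. acidophilus*, which lay on slide 1 only, this fit called Bcl3 at −0.54 (adjusted p = 0.0246, 2.74% of all genes), a value that borrows the slide effect of the other strains and lies outside its own arrays. With the replicate number as a block in place of the slide, 4 members were called for *B. clausii* against 28.5% of all genes and 2 for *B. bifidum* against 14.9%.

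Within slide 2, where each strain had 2 close arrays, 7 of the 8 members were called with *B. clausii*, against 55.9% of all genes. Tnfaip3 rose by 0.93 ± 0.07 (SE, 1.90-fold, adjusted p = 0.00031), Nfkb2 by 0.53 ± 0.05, Nfkbiz by 0.40 ± 0.05 and Nfkbia by 0.23 ± 0.06. Bcl3 fell by 0.70 (SE 0.05, 1.62-fold), Nfkbie by 0.69 (SE 0.05, 1.61-fold) and Relb by 0.49 (SE 0.04), with adjusted p from 0.000319 to 0.0269 over the 6 members besides Tnfaip3. With *B. bifidum*, 3 of 8 were called against 38.7% of all genes: Rela rose by 0.35 ± 0.05 (SE, adjusted p = 0.00371), Nfkbie fell by 0.77 (SE 0.05, adjusted p = 0.00058) and Bcl3 by 0.61 (SE 0.05, adjusted p = 0.00105). With so large a share of all genes called in both comparisons, the counts of members say little about these genes in particular.

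The signs of several of these values changed with the scaling. Loess corrects each array for a dye bias that changes with brightness. With median centring in its place, the median of all genes was −0.30 with *B. clausii* and −0.42 with *B. bifidum*. Nfkb2 then stood at −0.10, Nfkbiz at −0.23 and Nfkbia at −0.34 with *B. clausii*, and Rela at −0.52 with *B. bifidum*, all below 0. Against the shifted median of all genes, Nfkb2 and Nfkbiz still lay above it, while Nfkbia and Rela lay below it. Tnfaip3 with *B. clausii* kept its sign at 0.25 without passing (adjusted p = 0.5), and Relb with *B. clausii* was called at −1.13 (adjusted p = 0.0133), 1 of 3 members called in that fit. Bcl3 and Nfkbie stayed lower and called with both strains under median centring and under the scanner's log ratio. Median centring called 26.7% of all genes with *B. clausii* and 36.9% with *B. bifidum*, and the scanner's log ratio called 34.6% and 19.2%. With the latter, Tnfaip3 at 1.07 (adjusted p = 0.0115) and Nfkb2 at 0.62 (adjusted p = 0.017) were called with *B. clausii* and Rela at 0.51 (adjusted p = 0.0443) with *B. bifidum*, while Relb, at −0.14 (adjusted p = 0.351), and Nfkbiz, at 0.36 (adjusted p = 0.0745), were not.

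Macrophage markers moved on the same arrays. With *B. clausii* on slide 2, 8 of 10 markers were called lower, where 55.9% of all genes were called in either direction. The mean log2 ratio of the 10 was −0.65 and −0.63 on these arrays, with all 10 below 0. It was −0.18 on both *B. bifidum* arrays of slide 2 and between 0.04 and 0.13 on the arrays of slide 1. The part of this shift in the values of the members was not tested, and in bulk RNA fewer cells of a type and less RNA per cell cannot be told apart.

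The strains were compared with each other directly, which cancels a dye effect common to all arrays. Over all 8 arrays no member differed between *B. clausii* and *B. bifidum* by limma, against 0.0263% of all genes called. Relb was the 1 member with an unadjusted p under 0.05, at −0.38 ± 0.11 (SE, adjusted p = 0.288), and 1797 genes reached that level. The 95% intervals were wide: Tnfaip3 lay at 0.57 with an interval from −0.06 to 1.20, and Nfkbie at 0.00 with an interval from −0.64 to 0.64.

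Within slide 2, 5 of the 8 members differed between the strains, against 29.6% of all genes. Tnfaip3 was higher with *B. clausii* by 0.86 (95% interval 0.62 to 1.09, adjusted p = 0.0029), Nfkbiz by 0.51 (0.32 to 0.69, adjusted p = 0.00688) and Nfkb2 by 0.46 (0.28 to 0.64, adjusted p = 0.00812). Relb was lower with *B. clausii*, at −0.54 (−0.69 to −0.39, adjusted p = 0.00307), as was Rela, at −0.38 (−0.55 to −0.21, adjusted p = 0.0123). Nfkbie, at 0.07 (−0.10 to 0.25), and Bcl3, at −0.08 (−0.28 to 0.11), did not pass. The directions of all 5 held with the scanner's log ratio and with median centring, where Tnfaip3 stood at 0.96 and 0.95, but neither scaling called any of them, against 1.76% and 0% of all genes. The pair of arrays on slide 1 gave Tnfaip3 at 0.00 and Nfkb2 at −0.20, from 1 array per strain.

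**Figure D3:**
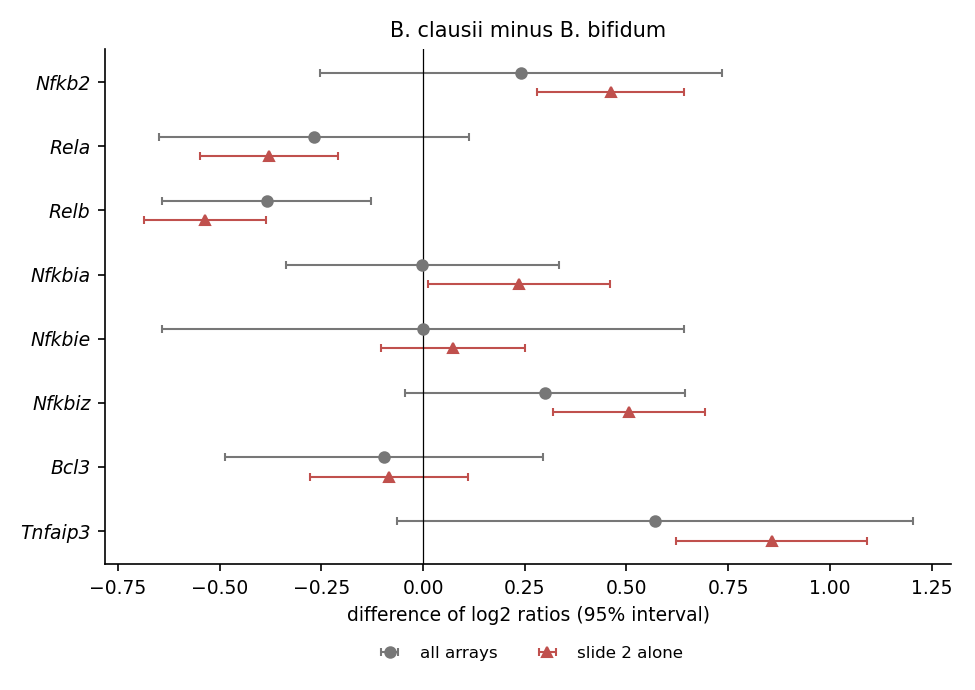
Difference of the log2 ratio between B. clausii and B. bifidum for each member with its 95% interval from limma, over all 8 arrays (grey circles) and within slide 2 alone (red triangles). On slide 2 the intervals of Tnfaip3, Nfkbiz and Nfkb2 lie above 0 and those of Relb and Rela below 0, while over all arrays most intervals span 0.

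The slides were then set against each other within a strain. In a fit with a mean per strain and slide, 6 of the 8 members differed between the slides with *B. clausii*, against 38.6% of all genes. The ratio of Tnfaip3 was 1.13 ± 0.11 (SE) higher on slide 2 (adjusted p = 0.00109) and that of Nfkb2 0.86 ± 0.08 higher (adjusted p = 0.000938). With *B. bifidum*, 5 of 8 differed, against 29.7% of all genes, and Nfkbie was at −0.95 ± 0.08 (SE, slide 2 minus slide 1, adjusted p = 0.0012) and Rela at 0.59 ± 0.08 (adjusted p = 0.00316). Slide 1 had 1 array for each of these strains, so that its spread was taken from the other groups. For *B. clausii* that array is replicate 3, and slide and this array cannot be told apart.

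A ratio can move through either channel, so the level in untreated cells was compared between the slides, on log2 Cy3 intensity scaled between arrays. Tnfaip3 was well separated: 11.98, 12.15, 12.68 and 12.09 on the 4 arrays of slide 1, and 10.45, 10.44, 10.43 and 10.51 on the 4 arrays of slide 2. Untreated cells on slide 1 thus carried 3.40-fold more Tnfaip3 signal (log2 difference 1.77 ± 0.16, SE, adjusted p = 0.000153), with no overlap. On this scale the treated *B. clausii* arrays of slide 2, at log2 Cy5 levels of 11.41 and 11.35, stayed below every untreated value of slide 1. That sets 1 dye against the other across slides with different scan ranges, so it does not compare the cells themselves. Before scaling between arrays, the median Cy3 signal of *B. clausii* replicate 3 was 1558.5. It was 12541.5 to 14387 on the rest of slide 1 and 948 to 1364 on slide 2.

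Nfkbie was the other member called. Its log2 Cy3 levels were 9.54, 9.63, 10.85 and 9.70 on slide 1 and 8.62, 8.84, 8.82 and 9.35 on slide 2, a difference of 1.03 ± 0.31 (SE, 2.04-fold, adjusted p = 0.0397) without overlap. Both called members were higher on slide 1, where 27% of all genes were called and 10.6% were higher. The Nfkbie call was lost (adjusted p 0.0585 to 0.11) without *L. acidophilus* replicate 2, *B. clausii* replicate 1 or 2, or *B. bifidum* replicate 1 or 3, where the difference was 0.93 to 1.13, and that of Tnfaip3 held without each of the 8 arrays in turn (1.62 to 1.85).

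The array of *B. clausii* replicate 3 set much of the spread on slide 1. For Nfkbiz it gave 7.72, not well above background, against 11.36, 11.37 and 11.51 on the rest of slide 1 and 9.77, 9.79, 9.76 and 8.18 on slide 2. For Nfkbia it gave 16.26, against 14.38, 14.63 and 14.23 on slide 1 and 15.07, 15.21, 15.25 and 15.40 on slide 2. Before scaling between arrays, its median Cy3 signal for Nfkbia was 22433, the lowest of all arrays, against 51639 to 58876 on the rest of slide 1. Without this array, 5 members were called, against 52.2% of all genes. Tnfaip3 was higher on slide 1 by 1.62 ± 0.07 (SE), Nfkbiz by 2.03 ± 0.39, Nfkbie by 0.72 ± 0.16 and Bcl3 by 0.31 ± 0.09, and Nfkbia was lower, at −0.82 ± 0.12, with adjusted p from 1.83e-06 to 0.0195.

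The subunits differed less in untreated cells. Nfkb2 ranged from 10.09 to 10.74 on slide 1 and from 9.72 to 10.15 on slide 2, Rela from 11.40 to 12.07 and from 11.39 to 11.57, and Relb from 10.28 to 11.95 and from 10.28 to 10.63. These ranges overlapped, and no subunit passed with or without *B. clausii* replicate 3. Bcl3 ranged from 12.02 to 12.44 on slide 1 and from 11.90 to 12.13 on slide 2. Slide, scan and the untreated culture cannot be told apart here.

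**Figure D4:**
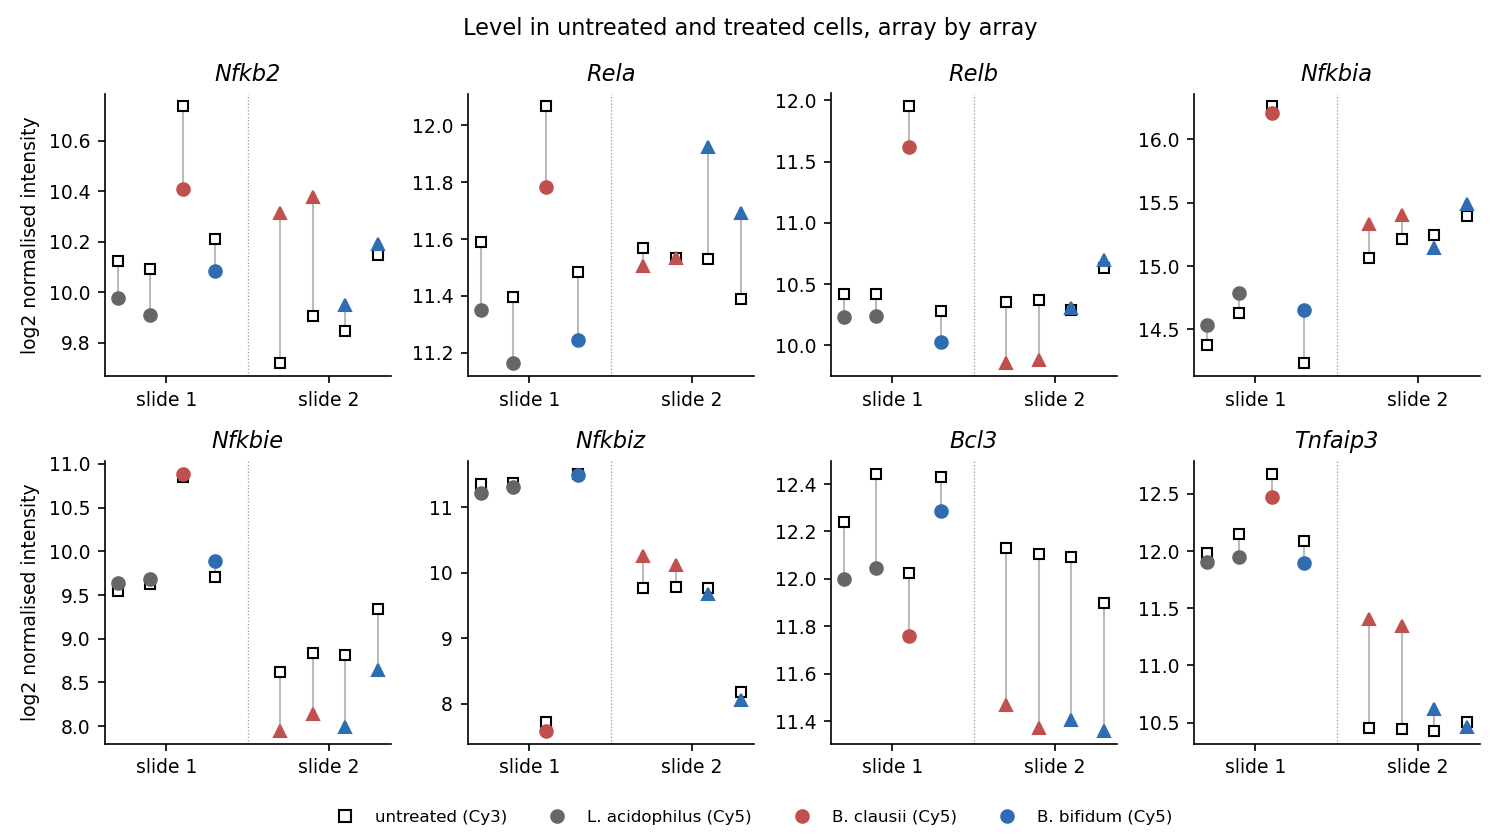
Log2 normalised intensity of each member on each array, with open squares for untreated cells (Cy3) and coloured symbols for treated cells (Cy5) of the same array, joined by a line; arrays are grouped by slide and each panel has its own scale, which does not start at 0. Tnfaip3 lies at 11.98 to 12.68 in untreated cells on slide 1 and at 10.43 to 10.51 on slide 2, and B. clausii replicate 3 is the high point of slide 1 for Nfkb2, Rela, Relb, Nfkbia, Nfkbie and Tnfaip3. Before scaling between arrays, the median Cy3 signal of that array was the lowest of slide 1 for each of these members.

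**Figure D5:**
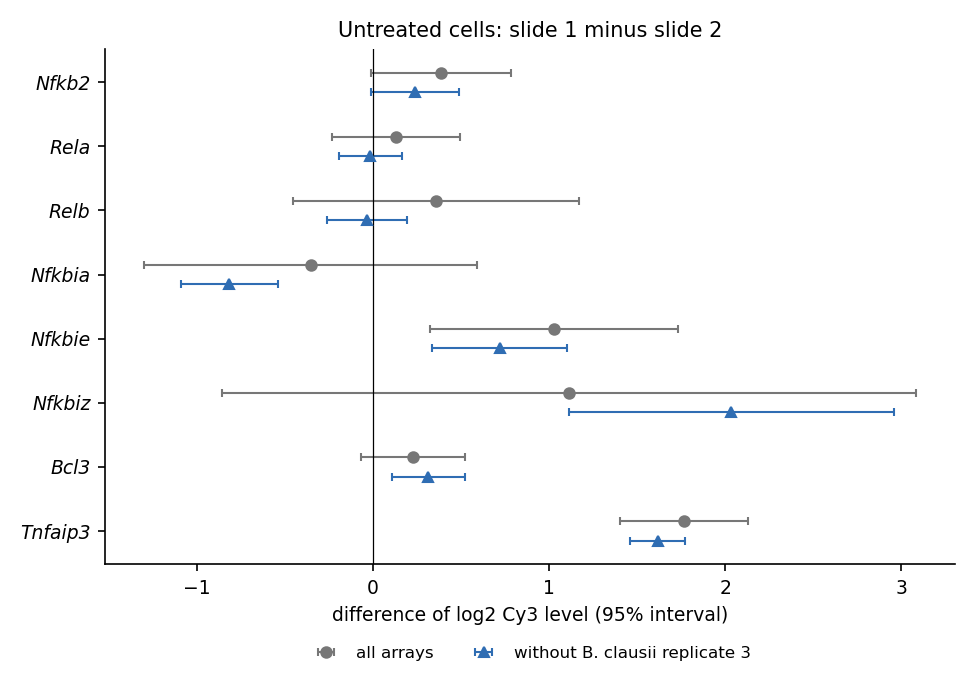
Difference of the log2 Cy3 level of untreated cells between slide 1 and slide 2 with its 95% interval from limma, over all 8 arrays (grey circles) and without B. clausii replicate 3 (blue triangles). Tnfaip3 and Nfkbie lie above 0 in both fits, and the intervals of Nfkbiz, Nfkbia and Bcl3 leave 0 once that array is left out.

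Scaling between arrays mattered for this comparison. Without it, the median of all genes differed by 0.67 between the slides, Tnfaip3 by 2.93 (adjusted p = 0.163) and Nfkbie by 1.99 (adjusted p = 0.319), and no member passed. With the scanner's processed green signal, 5 members were called against 35.5% of all genes, all 5 higher on slide 1, with Tnfaip3 at 2.11 (adjusted p = 1.18e-05).

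Other genes of the pathway were read from a list of 48 kinases, adaptors, ubiquitin enzymes and inhibitors, of which 47 were measured. Over all 8 arrays none rose and 3 fell with *B. clausii*: Pdlim2, an E3 ligase that ends nuclear p65 (−0.35 ± 0.06, SE, adjusted p = 0.0364), Irak3, an inhibitor of the Toll-like receptor adaptor complex (−0.69 ± 0.14, adjusted p = 0.0404), and Tnip1, a partner of A20 (−0.64 ± 0.15, adjusted p = 0.0475). With *B. bifidum* only Pdlim2 fell (−0.41 ± 0.06, SE, adjusted p = 0.0203), and with *L. acidophilus* none of the 47 passed. Of all genes, 4.77% were called with *B. clausii*, 1.72% with *B. bifidum* and 0% with *L. acidophilus*. The list's median with *B. clausii* was −0.12, beside −0.01 over all genes. Without *B. clausii* replicate 3, Pdlim2 (−0.36), Irak3 (−0.95) and Tnip1 (−0.81) stayed called with *B. clausii* by limma. In that fit 7 regulators rose and 19 fell, against 36% of all genes called. Pdlim2, Irak3 and Tnip1 kept their sign with the scanner's log ratio and with median centring but passed under neither.

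Within slide 2, 11 of the 47 regulators rose and 24 fell with *B. clausii*, and 11 rose and 19 fell with *B. bifidum*, where 55.9% and 38.7% of all genes were called. The deubiquitinase Otulin fell with both (−0.91 ± 0.04 and −0.62 ± 0.04, SE), and Irak2, a kinase of the Toll-like receptor complex, rose by 1.28 ± 0.05 with *B. bifidum*. With the scanner's log ratio, 6 rose and 17 fell with *B. clausii* and 7 rose and 7 fell with *B. bifidum*. It called 34.6% and 19.2% of all genes. Under median centring, which lowered the median of all genes, none of the 47 rose with either strain, and 23 and 27 fell. That scaling called 26.7% and 36.9% of all genes. Between the strains, 6 regulators were higher and 14 lower with *B. clausii*, where 29.6% of all genes were called. Among them were Traf1, an NF-kB-induced adaptor, at 0.82 ± 0.06 (SE), and Irak2 at −1.42 ± 0.07. Neither other scaling called any of the 47, against 1.76% of all genes with the scanner's log ratio and 0% with median centring.

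Inflammatory genes that NF-kB is known to drive, 35 measured of 38 listed, moved both ways. Over all 8 arrays 1 rose and 3 fell with *B. clausii*, 2 rose and 1 fell with *B. bifidum*, and none passed with *L. acidophilus*. These fits called 4.77%, 1.72% and 0% of all genes. The neutrophil chemokine Cxcl2 rose by 1.05 ± 0.10 (SE, adjusted p = 0.0158) with *B. clausii*, on 2 arrays of slide 2, since its spot on replicate 3 was removed as an outlier. With *B. clausii* the 3 that fell were Tnfaip2, a TNF-induced gene (−1.01 ± 0.16, adjusted p = 0.0343), the chemokine Ccl5 (−0.76 ± 0.12, adjusted p = 0.0343) and the acute-phase gene Saa3 (−0.39 ± 0.09, adjusted p = 0.0467). Without *B. clausii* replicate 3, Tnfaip2 (−1.30), Ccl5 (−0.97) and Saa3 (−0.43) stayed called. In that fit 10 targets rose and 9 fell, against 36% of all genes called. Over all 8 arrays with the scanner's log ratio, Cxcl2 alone of the 35 was called with *B. clausii* and none with *B. bifidum*. Under median centring none was called with either. Of 15203 genes, the scanner's log ratio called 71 and 3, and median centring 0 and 3. The largest shift of the list lay in untreated cells: 22 of the 35 were higher and 4 lower on slide 1, with a median of 1.34 beside −0.09 over all genes. Ptgs2, the inducible cyclooxygenase, stood 3.65 ± 0.09 (SE) higher on slide 1, and the monocyte chemokine Ccl2 stood 2.87 ± 0.11 higher. Cxcl2 stood 4.95 ± 0.14 higher there, without *B. clausii* replicate 3, where its spot was removed. Its rise with *B. clausii* was thus read on slide 2 against this lower untreated level. Irf1 (−1.05), Cd40 (−0.73) and Ccl5 (−1.17) were among the 4 lower. Without *B. clausii* replicate 3 the counts were 26 and 5, with a median of 1.53, where 52.2% of all genes were called. Without scaling between arrays they were 8 and 0, where 61 of 15203 genes were called. Of the 47 pathway regulators, 8 were higher and 6 lower on slide 1 over all 8 arrays, where 27% of all genes were called. Macrophage markers moved in the same comparison, 4 of 10 higher and 1 lower on slide 1. Without *B. clausii* replicate 3, 7 markers were higher and 2 lower, where 52.2% of all genes were called. Of the markers, Mpeg1 stood at 1.68, Lyz2 at 2.05 and the Fc receptor gene Fcgr1 at −3.00 over all 8 arrays. The part of the markers in the result was not tested. These are the same untreated channels in which Tnfaip3 and Nfkbie were higher on slide 1.

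The genes whose log2 ratios were most like those of Nfkbia over the 8 arrays, among 14907 genes with a value on every array, were Zfp41 (Pearson r = 0.96), Pacsin3, Eid2b, Pcnx2 and Stk40 (r = 0.93). For Tnfaip3, a choice made after its values were seen, they were Emp1, Rps6ka1, Ncapg, Vma21 and Pdss1, with r from 0.99 to 1.00. The arrays share slides, and these likenesses are a description.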

How the data were processed

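Each of the 8 arrays was a 2-colour Agilent array, read from its scanner file. The deposited files hold the intensity of each spot and its background, on a linear scale and as medians. Agilent Feature Extraction made them, in version 10.7.3.1 per the file headers and 10.5.1.1 per the submitters' processing notes. They also hold a log10 ratio of Cy5 over Cy3 from background-subtracted, dye-normalized signals. The authors' deposited table holds the same log10 ratio to within 0.005.

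In limma 3.58.1 (R 4.3.3), background was corrected with normexp (offset 50) on median signals (mean signals were not analysed here), and ratios were normalized by loess with control spots at weight 0. Outlier spots were removed, spots of a probe averaged, and probes kept when well above background in 1 channel on at least 2 arrays (28598 of 41174). Accessions were named through a RefSeq table (GRCm38.p6), which named 29169 of 43379 probe features. A gene was its brightest probe. Cy3 and Cy5 levels were scaled with Aquantile. Each strain had 1 mean in a joint fit of the 8 arrays (lmFit, eBayes), with p-values adjusted over 15203 genes at 0.05, and slides came from the file headers. The fit was run on simulated data with independent noise per array and no slide effect, which leaves the slide and array effects seen here unchecked. No array depth is defined beyond signal over background, and the number of arrays limits the precision.

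The members, the lists and the alternatives were chosen with earlier results of these data known. All 10 members were described, with the 3 other lists by counts and their passing genes of smallest p, and for Nfkbia the 5 genes of highest r. Alternatives were other background, signal, scaling, filter, probe, spread and sample choices. The fit with a mean per strain and slide, the slide 2 fits with other scalings or no background correction, and the untreated fit without *B. clausii* replicate 3 and saturated spots, and the other lists without *B. clausii* replicate 3, were added after seeing the data. Same-numbered *B. clausii* and *B. bifidum* arrays deviated together (r = 0.41, 0.30 and 0.46), but so did other arrays of slide 2 (0.26 and 0.37), and no label names what a number shares.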

Additional observations from a re-analysis of the deposited data

Results flagged for a closer look

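Within a slide, the untreated level (log2 Cy3) of a member was called an outlier where its gap to the nearest array was above Dixon's 95% limit for 4 arrays. Of 16 such tests 5 passed, where chance alone gives about 1 in 20. On slide 1 the array of *B. clausii* replicate 3 was the highest for Relb (11.95) and Nfkbie (10.85) and the lowest for Nfkbiz (7.72, not well above background). Before scaling between arrays, its median Cy3 signal was the lowest of slide 1 for Relb (940, against 3421 to 4660.5) and Nfkbie (450, against 2233 to 2470). On slide 2 the array of *B. bifidum* replicate 2 was the lowest for Nfkbiz (8.18) and Bcl3 (11.90). These arrays had the fewest probes well above background, 12543 and 21508, and the part of this in the values was not tested.

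Below are the pairs of member and strain whose log2 ratio differed between the slides by limma, as did that of many other genes. With *B. clausii*, slide 2 minus slide 1 was 1.13 for Tnfaip3, 0.86 for Nfkb2, 0.54 for Nfkbiz, 0.25 for Rela, −0.43 for Bcl3 and −0.72 for Nfkbie. With *B. bifidum* it was 0.59 for Rela, 0.30 for Relb, −0.43 for Nfkbia, −0.47 for Bcl3 and −0.95 for Nfkbie. The untreated levels of Tnfaip3 and Nfkbie also differed between the slides, and slide, scan and culture cannot be told apart. Slide 1 held 1 array of each strain here, which for *B. clausii* is replicate 3.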

How the results depend on the processing

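The share of all genes called changed with the fit, as did the counts of members below. For *B. clausii* the share was 4.77%, then 25.2% with the slide as a block and 55.9% on slide 2 alone. For *B. bifidum* it was 1.72%, 14% and 38.7% in these fits. Between the strains it was 0.0263%, and 29.6% on slide 2 alone. For *L. acidophilus* it was 0%, and 2.74% with the slide as a block. A mean per strain and slide also called more of all genes for each strain. Counts below are of the 8 tested members called. For *B. clausii* against untreated cells, 2 were called, and 0 with no background correction, the scanner log ratio, the deposited table, median centring, an intensity trend with robust spread, only the strain's own arrays or slide 1 alone. The count was 1 with the mean of a gene's probes, 4 with the slide as a block or the replicate block, and 7 on slide 2 alone or with a mean per strain and slide. On slide 2 it was 4 with the scanner log ratio, 3 with median centring and 7 with no background correction. Of 15203 genes, 391 were called with the mean of probes, 4330 with the replicate block and 8521 with a mean per strain and slide. On slide 2 the share was 34.6% with the scanner log ratio and 26.7% with median centring. There, 8305 genes were called with no background correction. Over all arrays, no background correction called 252 genes and the scanner log ratio 71. For *B. bifidum*, 0 became 2 with the slide or the replicate block (14% and 14.9% of all genes called). It became 3 on slide 2 alone (38.7%) and with a mean per strain and slide (6133 genes). On slide 2 it was 3 with the scanner log ratio (19.2%) or no background correction (6658 genes), and 5 with median centring (36.9%). Between the strains, 0 became 5 on slide 2 alone (29.6% of all genes called) and with a mean per strain and slide (4765 genes). It became 6 on slide 2 with no background correction (4582 genes). For *L. acidophilus*, 0 became 1 with the slide as a block (2.74% of all genes called) and 3 with a mean per strain and slide (1848 genes). For untreated cells, 2 became 0 without scaling between arrays (61 genes called) and 1 with the replicate block (1628 genes). It became 5 with the scanner's processed green signal (35.5% of all genes) or without *B. clausii* replicate 3 and saturated spots (7908 genes).

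Leaving out 1 array in turn gave 0 to 0 for *L. acidophilus*, 0 to 6 for *B. clausii*, 0 to 3 for *B. bifidum*, 0 to 4 between the strains and 1 to 5 for untreated cells. The highest counts came without *B. clausii* replicate 3, except for *L. acidophilus*, with 0 throughout, and *B. bifidum*, where they came without its own replicate 3. The fits with these counts called 5479 genes for *B. clausii*, 2088 for *B. bifidum*, 2130 between the strains and 7931 for untreated cells. Without *B. clausii* replicate 3, 1 member was called for *B. bifidum* (1409 genes), and without *B. bifidum* replicate 3, 1 between the strains (467 genes). Nfkbia was called with the opposite sign to the fit over all arrays on slide 2 for *B. bifidum* with median centring (−1.03) and between the strains with no background correction (0.32). Slide 2 alone, without these changes, already had that sign, at −0.01 and 0.23 and not called. The replicate block left the count between the strains at 0. Genes called overall went from 725 to 4330 for *B. clausii* and from 262 to 2267 for *B. bifidum* with that block. Over all alternatives they ranged from 0 to 8521, from 0 to 6658, from 0 to 4765 between the strains (4 in the fit reported), from 0 to 1848 for *L. acidophilus* (0) and from 61 to 7931 for untreated cells (4104). Slide 2 holds no *L. acidophilus* array, so it gave no value there or for the slide comparison of untreated cells. The causes of these changes were not tested. Signal over background limits Rel, and Nfkbiz on *B. clausii* replicate 3.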
